A study of Homo sapiens with 8 samples.

Results

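The prenyltransferases and CAAX processing enzymes attach isoprenoids to proteins and finish the modified end. They were taken as 10 genes, FNTA, FNTB, PGGT1B, RABGGTA, RABGGTB, CHM, CHML, RCE1, ICMT and ZMPSTE24, found by symbol among the 58219 genes listed for each library. RNA was sequenced from H929 cells (NCI-H929 in the labels) and KMS11 cells that had been kept for 24 h in 2 µM fluvastatin or in ethanol, the solvent control. There were 4 groups, namely H929 in ethanol, H929 in fluvastatin, KMS11 in ethanol and KMS11 in fluvastatin, each with 2 biological replicates, which gave 8 libraries. Both are established multiple myeloma (MM) lines that carry t(4;14), so each stands for a single tumour, and the 4 groups share that translocation. With 2 lines, a difference between them cannot be assigned to any other feature of a line.

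Fluvastatin, a statin, limits the mevalonate (MVA) pathway, which makes farnesyl pyrophosphate (FPP) and geranylgeranyl pyrophosphate (GGPP). The transferases join these isoprenoids to cysteines near the end of their substrates. FNTA is the alpha subunit shared by farnesyltransferase, with the beta subunit FNTB, and GGTase I, which transfers the geranylgeranyl group, with the beta subunit PGGT1B. Rab GGTase, built from RABGGTA and RABGGTB, acts only on Rab proteins presented by an escort protein, REP1 (CHM) or REP2 (CHML). In the endoplasmic reticulum RCE1 then removes the last residues of the CAAX box and ICMT methylates the exposed cysteine, while ZMPSTE24 cleaves prelamin A.

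Expected counts per library, which are the fragments the authors' software assigned to genes, ranged from 26702515 to 41910446. Replicates differed by more than counting error in every group, and KMS11 fluvastatin spread the most, with a standard deviation of 0.263 for the log2 ratio of its replicates against 0.141 to 0.201 in the other groups. Its replicate 1 had 88.1% of its counts in protein-coding genes, where the other KMS11 libraries had 90.8% to 91.4% and the H929 libraries 85.2% to 86.1%. The mitochondrial share of counts was 0.898% and 1.06% in fluvastatin-treated H929 against 0.716% and 0.745% in its solvent control, and 0.665% and 0.678% against 0.520% and 0.530% in KMS11. The part of these shares in the results was not tested. All plasma cell markers were present in H929, where their TPM summed to between 6278 and 8121. All but CD38 (at most 0.04 TPM) were present in KMS11, with sums of 4747 to 7094. Most of these sums was JCHAIN, which held 4164 to 6237 TPM in H929 and 3935 to 5973 in KMS11. The 17 markers of other blood and stromal cells summed to between 8.45 and 12.5 TPM in H929 and between 32.7 and 38.2 in KMS11, where EPCAM alone held 30.2 to 35.9.

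Levels of different genes were set side by side as TPM, which is scaled by transcript length within each library. RABGGTB was the most abundant of the 10 in H929, at 81.8 and 98.0 TPM in the solvent controls, above 96.3% of the tested genes. In KMS11 ZMPSTE24 came first, at 80.2 and 75.0 TPM. FNTB was the lowest of the 10 in all groups, between 1.64 and 2.81 TPM, and its counts of 139 to 376 per library were also small. The subunits of an enzyme were thus far from equal in RNA level. The read-through gene CHURC1-FNTB, which shares exons with FNTB, had mean TPM of 4.725 in KMS11 ethanol and 3.125 in KMS11 fluvastatin. These lay above the means of FNTB there (2.51 and 2.715), so the rank of FNTB in KMS11 is uncertain. In H929 the means of CHURC1-FNTB were 0.19 in ethanol and 0.25 in fluvastatin.

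In the H929 solvent controls the mean TPM ran from RABGGTB (89.9) through ZMPSTE24 (33.0), FNTA (28.2), ICMT (19.4), CHML (11.1), RABGGTA (8.23), PGGT1B (7.07), RCE1 (4.30) and CHM (3.01) to FNTB (2.08). No neighbours in that order overlapped between their replicates. In fluvastatin FNTA (37.6) moved ahead of ZMPSTE24 (30.6), ICMT (11.5) overlapped CHML (11.3), RABGGTA (7.19) overlapped PGGT1B (7.08), and CHM (4.60) moved ahead of RCE1 (3.45). In the KMS11 solvent controls the order was ZMPSTE24 (77.6), RABGGTB (45.6), ICMT (37.3), FNTA (34.1), CHML (25.8), PGGT1B (9.77), CHM (8.73), RABGGTA (4.44), RCE1 (4.19) and FNTB (2.51), again with no overlap between neighbours. In fluvastatin-treated KMS11 ICMT (38.7), RABGGTB (34.4) and FNTA (29.0) were neighbours whose replicates overlapped, as were PGGT1B (8.33) and CHM (8.26), and RABGGTA (4.90) and RCE1 (4.61).

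**Figure D1:**
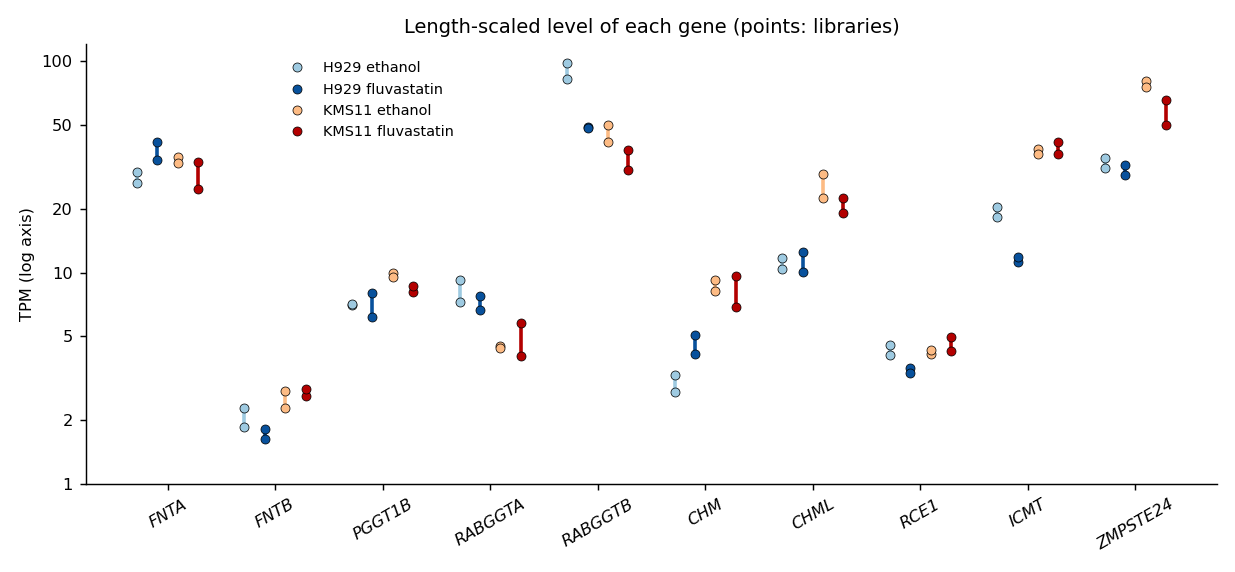
TPM of each gene on a log axis, with 1 point per library and a bar joining the 2 replicates of a group. RABGGTB and ZMPSTE24 lie highest in the solvent controls of both lines, FNTB lies lowest throughout, between 1.64 and 2.81 TPM, and ICMT in fluvastatin-treated H929 (11.2 and 11.9) sits below its solvent control (18.4 and 20.4).

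To ask how the enzymes responded to fluvastatin, their counts were compared between treatments with both lines together and a term for the line, within each line, and between the responses of the lines. A gene was called changed at an adjusted p under 0.05 from edgeR's quasi-likelihood test, adjusted over the 13129 protein-coding genes tested, and all 10 genes were among them. These comparisons share libraries, so their values stand side by side and do not support each other. Levels between libraries are given as CPM, counts scaled to a common library size by TMM. In bulk RNA, fewer cells of a kind and less RNA per cell cannot be told apart.

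Across both lines 1 of the 10 genes changed, RABGGTB, which fell, where 10.4% of all tested genes changed (6.50% higher and 3.93% lower). The median log2 fold change was -0.03 over the 10 genes and 0.03 over all tested genes. Within H929 4 of 10 changed, FNTA and CHM higher and RABGGTB and ICMT lower, beside 42.0% of all tested genes (22.7% higher and 19.3% lower), with medians of -0.13 and 0.02. Within KMS11 none of the 10 passed the edgeR test, where 3.12% of all tested genes did (2.58% higher and 0.533% lower), none passed with DESeq2, and 3 had an unadjusted p under 0.05 (ZMPSTE24 and RABGGTB lower, ICMT higher). The responses differed between the lines for 3 of 10, ICMT, RABGGTB and CHM, beside 23.2% of all tested genes (11.7% with a higher and 11.5% with a lower value in KMS11). These shares were near those of all genes in each comparison, so the results lie in which genes moved and by how much.

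**Figure D2:**
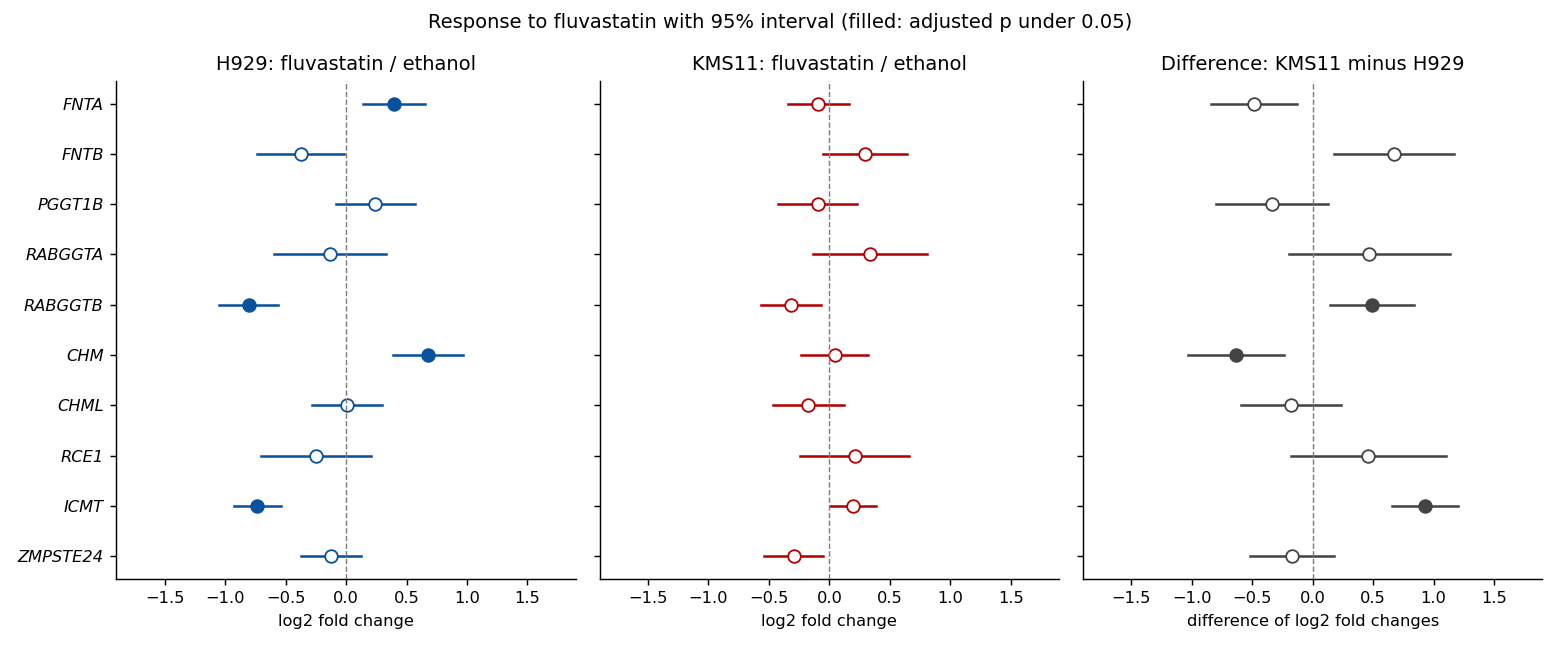
Log2 fold change of each gene with its 95% interval in H929, in KMS11, and as the difference between the lines (KMS11 minus H929). Filled points passed the adjusted p threshold, which holds for 4 genes in H929, for none in KMS11 and for 3 in the difference, ICMT at 0.93 being the farthest from 0.

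Of the CAAX transferase subunits, the shared alpha subunit FNTA rose in H929 and neither beta subunit passed the test. FNTA (ENSG00000168522.12, GRCh38 chromosome 8, 43034194 to 43085788) was at 107 and 120.4 CPM in the H929 solvent controls and at 138 and 161 in fluvastatin. Both treated libraries lay above both controls. The rise was 31.6%, or 0.40 ± 0.11 on the log2 scale (value ± standard error, adjusted p = 0.018, edgeR). In KMS11 FNTA was at 88.2 and 94.7 CPM in ethanol and at 79.9 and 91.6 in fluvastatin, which overlapped, with a log2 fold change of -0.09 (95% interval -0.34 to 0.16). The difference between the lines was -0.49 (95% interval -0.84 to -0.13, adjusted p = 0.053 in edgeR). It did not pass here, but passed under 9 of 20 alternatives, among them DESeq2 (adjusted p = 0.026), as often as the difference of RABGGTB given below. The FNTA call in H929 was lost without H929 ethanol replicate 1 (0.31, adjusted p = 0.13), without H929 fluvastatin replicate 2 (0.28, adjusted p = 0.15) and without either KMS11 ethanol library (0.36, adjusted p = 0.062 for both).

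FNTB, the farnesyltransferase beta subunit (ENSG00000257365.7, GRCh38 chromosome 14, 64986895 to 65062652), was at 8.88 and 7.76 CPM in the H929 solvent controls and at 6.10 and 6.73 in fluvastatin. In KMS11 it was at 7.88 and 7.93 in ethanol and at 9.60 and 9.81 in fluvastatin. The replicates of the treatments did not overlap in either line, but -0.38 on the log2 scale in H929 (adjusted p = 0.088), 0.30 in KMS11 (adjusted p = 0.29) and the difference of 0.67 (95% interval 0.17 to 1.17, adjusted p = 0.055) did not pass the edgeR test. The FNTB difference passed with library size scaling (adjusted p = 0.049), with the stricter filter (0.048) and with the replicate block (0.046). The read-through gene CHURC1-FNTB shares exons with FNTB and held 0.0 to 34.8 expected counts in H929 and 53.0 to 132.3 in KMS11, so the division of counts between the pair is uncertain. With the CHURC1-FNTB counts added to FNTB, a choice made after seeing the data, the numbers of genes called among the 10 stayed as they were in every comparison.

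PGGT1B, the beta subunit of GGTase I (ENSG00000164219.9, GRCh38 chromosome 5, 115204012 to 115262877), overlapped between treatments in both lines. It was at 37.6 and 46.8 CPM in the H929 solvent controls against 45.2 and 54.5 in fluvastatin, and at 51.3 and 49.6 against 42.2 and 52.1 in KMS11. Its log2 fold changes were 0.24 (95% interval -0.09 to 0.57) in H929 and -0.10 (95% interval -0.42 to 0.23) in KMS11.

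**Figure D3:**
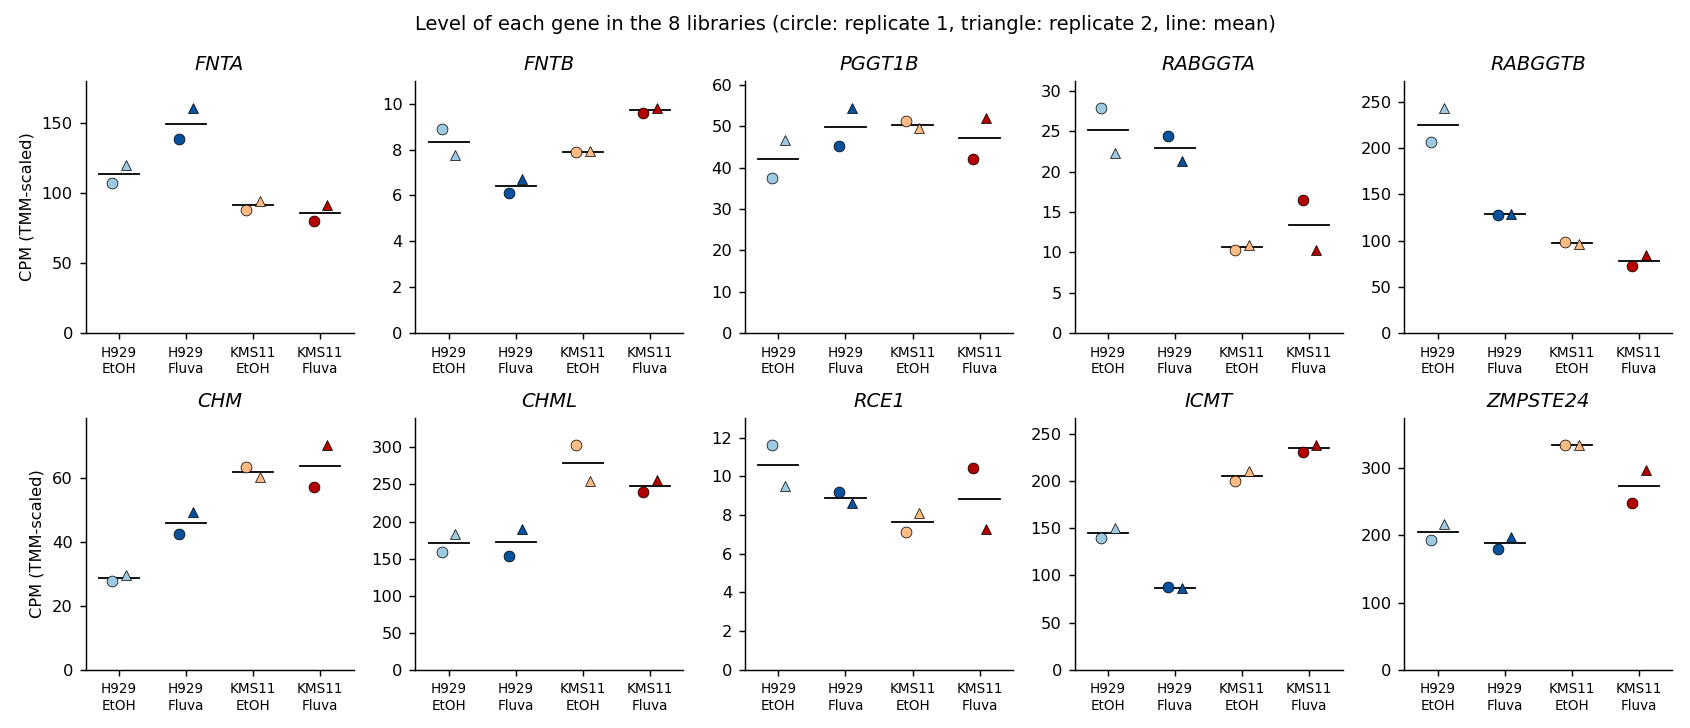
CPM of each gene in the 8 libraries, on axes that start at 0, with circles for replicate 1, triangles for replicate 2 and a line at the mean of each group. In H929 the treated libraries lie apart from the controls for FNTA and CHM (higher) and for RABGGTB, ICMT, RCE1 and FNTB (lower), while in KMS11 ICMT and FNTB lie higher and RABGGTB and ZMPSTE24 lower.

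The Rab branch held the lowest and the highest log2 fold change of the 10 genes in H929. RABGGTB, the catalytic beta subunit (ENSG00000137955.15, GRCh38 chromosome 1, 75786197 to 75795086), was at 206 and 243 CPM in the H929 solvent controls and at 128 and 129 in fluvastatin. In KMS11 it was at 98.3 and 96.4 in ethanol and at 72.0 and 84.4 in fluvastatin. The treated libraries lay below the controls in both lines. RABGGTB fell by 42.8% in H929 (log2 fold change -0.81 ± 0.11, adjusted p = 0.00036, edgeR), while its log2 fold change of -0.32 in KMS11 (95% interval -0.56 to -0.07, adjusted p = 0.15) did not pass.

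Across both lines RABGGTB fell by 32.2%, or -0.56 ± 0.12 on the log2 scale (value ± standard error, adjusted p = 0.028, edgeR). This call was lost without any single H929 library, with values of -0.57 to -0.47 and adjusted p of 0.067 without ethanol replicate 1, 0.089 without ethanol replicate 2, 0.11 without fluvastatin replicate 1 and 0.077 without fluvastatin replicate 2. The difference between the lines was 0.49 (95% interval 0.14 to 0.84, adjusted p = 0.047, edgeR), and it passed the threshold under 9 of 20 alternatives, with values from 0.36 to 0.69. ACADM, on the same strand, runs 1379 bases into the RABGGTB gene and held 1743 to 3412 expected counts per library, and reads there could be assigned to either gene. The small nucleolar RNA genes SNORD45A, SNORD45B and SNORD45C within RABGGTB are listed at 0 in all libraries.

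RABGGTA, the alpha subunit (ENSG00000100949.14, GRCh38 chromosome 14, 24265538 to 24271611), did not pass the edgeR test in either line and was not tested against RABGGTB. It was at 27.9 and 22.4 CPM against 24.5 and 21.4 in H929 (log2 fold change -0.13, 95% interval -0.60 to 0.33) and at 10.3 and 10.9 against 16.5 and 10.4 in KMS11 (0.33, 95% interval -0.14 to 0.81). The KMS11 value rested on fluvastatin replicate 1, the library with the lower protein-coding share. Without fluvastatin replicate 2, RABGGTA (0.60), RABGGTB (-0.48) and ZMPSTE24 (-0.47) passed the edgeR test in KMS11, with adjusted p of 0.033, 0.028 and 0.025.

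Of the escort proteins, CHM rose in H929 and CHML did not pass in either line. CHM (ENSG00000188419.13, GRCh38 chromosome X, 85861180 to 86047561) was at 27.6 and 29.8 CPM in the H929 solvent controls and at 42.4 and 49.5 in fluvastatin, with no overlap. The rise was 60.1%, or 0.68 ± 0.13 on the log2 scale (adjusted p = 0.0022, edgeR), and it passed under all 20 alternatives. In KMS11 CHM was at 63.4 and 60.4 against 57.3 and 70.4, a log2 fold change of 0.05 (95% interval -0.23 to 0.32). The difference between the lines was -0.63 (95% interval -1.03 to -0.23, adjusted p = 0.03, edgeR) and passed under 11 of 20 alternatives, with values from -0.80 to -0.31.

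CHML (ENSG00000203668.2, GRCh38 chromosome 1, 241628851 to 241640369) was at 159 and 183 CPM against 154 and 190.4 in H929, and at 304 and 255 against 239 and 256 in KMS11. Its log2 fold changes were 0.01 (95% interval -0.28 to 0.30) and -0.17 (adjusted p = 0.45, edgeR). With trends in GC content and length removed from each library, CHML was called lower in H929, at -0.29 (adjusted p = 0.0082). The CHML gene lies within OPN3 on the same strand, over 11519 bases, and OPN3 held 639.5 to 1440.6 expected counts per library, so the division of shared reads between them is uncertain.

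Of the enzymes that finish the CAAX end, ICMT fell in H929, and its response differed between the lines. ICMT, the isoprenylcysteine carboxyl methyltransferase (ENSG00000116237.15, GRCh38 chromosome 1, 6221193 to 6235972), was at 140.0 and 149.9 CPM in the H929 solvent controls and at 87.7 and 86.5 in fluvastatin. In KMS11 it was at 199.97 and 211 in ethanol and at 231 and 239 in fluvastatin. The treated libraries lay below the controls in H929 and above them in KMS11. ICMT fell by 39.9% in H929 (log2 fold change -0.73 ± 0.09, adjusted p = 0.00015, edgeR), and in KMS11 its log2 fold change was 0.19 (95% interval 0.00 to 0.38, adjusted p = 0.22).

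The difference between the ICMT responses was 0.93 (standard error 0.12, 95% interval 0.66 to 1.20, adjusted p = 0.001, edgeR). It stood at rank 246 of 13129 genes by p, and it passed the threshold under all 20 alternatives, with values from 0.75 to 0.98. The value across both lines, -0.27 (adjusted p = 0.32, edgeR), did not pass. The rise in KMS11 passed under 0 of 20 alternatives. ICMT-DT, on the opposite strand over 1281 bases of ICMT, held 28.0 to 53.0 expected counts in H929 and 5.0 to 16.0 in KMS11, and the library kit keeps strand.

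RCE1, the CAAX endoprotease (ENSG00000173653.7, GRCh38 chromosome 11, 66842835 to 66846552), was low in all groups. It was at 11.6 and 9.52 CPM against 9.18 and 8.62 in H929 (log2 fold change -0.25, 95% interval -0.71 to 0.20) and at 7.15 and 8.12 against 10.4 and 7.28 in KMS11 (0.21, 95% interval -0.24 to 0.66). The treatments did not overlap in H929 but overlapped in KMS11. C11orf80 covers 682 bases of RCE1 on the same strand and held 154.8 to 623.9 expected counts per library.

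ZMPSTE24, the prelamin A protease (ENSG00000084073.8, GRCh38 chromosome 1, 40258041 to 40294180), was at 193 and 217 CPM against 179 and 197 in H929, and at 335 in both solvent controls against 249 and 297 in fluvastatin in KMS11. The treated KMS11 libraries lay below the controls. The log2 fold changes were -0.12 (adjusted p = 0.39) in H929 and -0.30 (95% interval -0.54 to -0.05, adjusted p = 0.16) in KMS11, and neither passed the edgeR test. ZMPSTE24 was called lower in KMS11 with the replicate block (adjusted p = 0.047), with trends in GC content and length removed (0.036) and without KMS11 fluvastatin replicate 2 (0.025), and lower in H929 with those trends removed (-0.25, adjusted p = 0.0039). Treated and control libraries did not overlap for 6 of the 10 genes in H929 (2 higher and 4 lower) and for 4 in KMS11 (2 higher and 2 lower). Over all tested genes this held for 37.5% higher and 33.5% lower in H929 and for 26.9% and 26.5% in KMS11.

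Promoter windows are shown for ICMT and CHM, whose RNA moved in opposite directions in H929 and whose responses both differed between the lines. They are from RefSeq on GRCh38.p14 and cover 240 bases, from 250 to 11 bases before the annotated start. ICMT lies at chr1:6235975-6236214 and CHM at chrX:86047569-86047808, both on the minus strand and written 5′ to 3′. Capitals mark matches of the GC box GGGCGG on either strand.
ICMT: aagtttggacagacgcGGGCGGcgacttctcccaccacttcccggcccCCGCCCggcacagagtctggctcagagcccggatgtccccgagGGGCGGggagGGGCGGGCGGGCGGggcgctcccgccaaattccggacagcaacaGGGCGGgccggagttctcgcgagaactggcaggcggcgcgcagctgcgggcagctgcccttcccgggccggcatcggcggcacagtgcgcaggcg
CHM: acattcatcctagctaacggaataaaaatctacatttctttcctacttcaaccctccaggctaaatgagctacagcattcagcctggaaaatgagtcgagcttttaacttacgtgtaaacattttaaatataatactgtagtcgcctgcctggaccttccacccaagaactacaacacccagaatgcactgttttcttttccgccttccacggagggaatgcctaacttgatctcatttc
The ICMT window had 7 such matches, 3 of which overlapped another, and a GC content of 74.6%. The CHM window had none and a GC content of 41.7%, where the median of all 35116 windows was 57.9%.

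The GC box was found in 41.4% of all windows of this length. Of the 9 genes with a window, matches also stood in those of CHML (6), RCE1 (3), ZMPSTE24 (2) and FNTB (1), and not in those of PGGT1B, RABGGTA and RABGGTB. The other motifs searched on both strands were CCAAT (31.4% of all windows), the E-box CACGTG (6.01%), the cAMP response element TGACGTCA (1.57%), the ATF4 element TGATGNAA (3.03%) and the sterol element TCACNCCAC (0.851%). Among the 9 genes CCAAT was found in FNTB and TGACGTCA in RCE1, and no other matches were found. A match describes letters and is not evidence of binding, and its absence says only that the letters are not in these 240 bases.

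Partner genes were set against each other as ratios of TPM within a library, without a test. Ratios that include FNTB are uncertain in KMS11, because its reads are divided with CHURC1-FNTB. FNTA stood at 2.99 and 3.16 times the sum of its beta subunits FNTB and PGGT1B in the H929 solvent controls and at 4.34 and 4.21 times in fluvastatin. In KMS11 this ratio was 2.86 and 2.69 against 2.32 and 2.91, so the treatments were apart in H929 and overlapped in KMS11. RABGGTB stood at 8.90 and 13.5 times RABGGTA in the H929 solvent controls and at 6.29 and 7.28 times in fluvastatin, with 11.1 and 9.44 against 5.30 and 9.51 in KMS11. CHML exceeded CHM in every library, by 3.79 and 3.58 times against 2.44 and 2.47 times in H929 and by 3.16 and 2.74 times against 2.77 and 2.32 times in KMS11. ICMT stood at 4.04 and 5.02 times RCE1 in the H929 solvent controls, at 3.16 and 3.54 times in fluvastatin, and at 7.34 to 9.65 times in the KMS11 libraries. PGGT1B stood at 4.38 and 3.49 times FNTB in the KMS11 solvent controls and at 3.08 and 3.06 times in fluvastatin. These did not overlap, while in H929 the values of 3.759 and 3.100 against 3.762 and 4.366 were only just apart. ZMPSTE24 stood at 19.6 and 17.5 times RCE1 in the KMS11 solvent controls and at 10.1 and 15.3 times in fluvastatin, again apart, with 6.86 and 8.59 against 8.18 and 9.61 in H929. The treatments were thus apart in KMS11 for 2 of the 6 ratios. By CPM they were apart in KMS11 for 26.9% of all tested genes as higher and 26.5% as lower. In H929 these shares were 37.5% and 33.5%. Being apart was therefore not read as a response of a ratio.

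**Figure D4:**
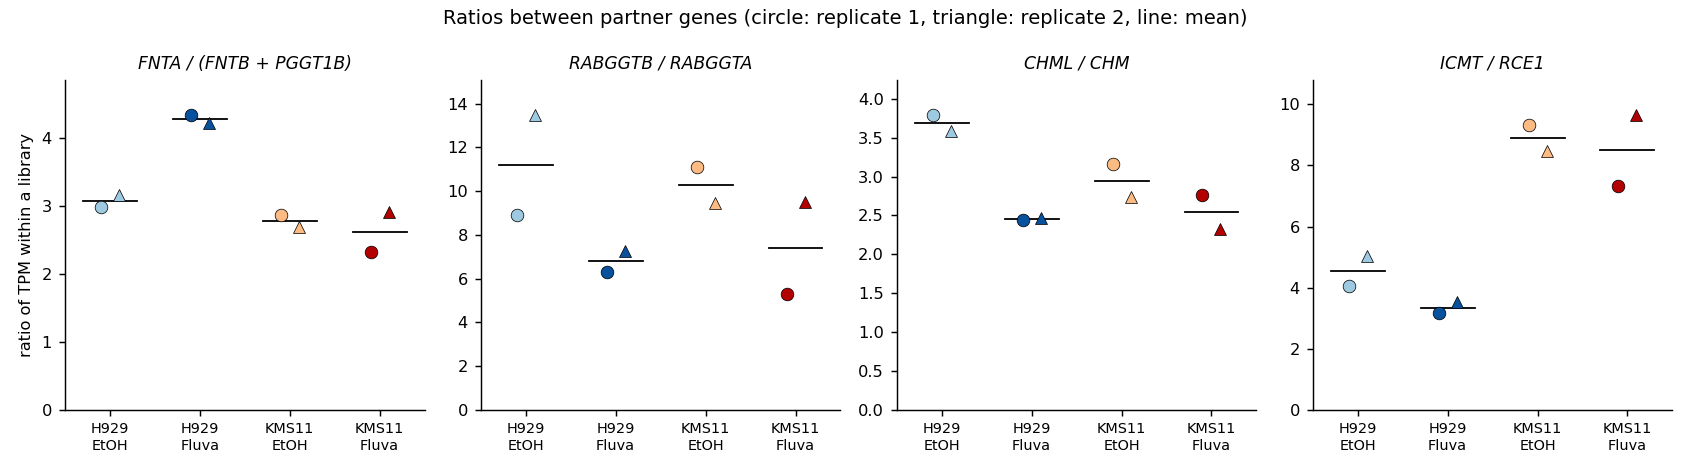
Of the ratios of TPM, 4 are plotted within each library, on axes that start at 0, with circles for replicate 1, triangles for replicate 2 and a line at the mean of each group. In H929 the treated libraries lie above the controls for FNTA over its beta subunits (4.21 and 4.34 against 2.99 and 3.16) and below them for the other 3 ratios, and in KMS11 the treatments overlap for all 4 plotted ratios.

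The lines also differed before treatment. In ethanol 7 of the 10 genes differed between KMS11 and H929, near the 72.0% of all tested genes (35.6% higher and 36.4% lower in KMS11). CHM (log2 difference 1.11), CHML (0.71), ZMPSTE24 (0.71) and ICMT (0.50) were higher in KMS11, and RABGGTA (-1.25), RABGGTB (-1.21) and FNTA (-0.32) were lower, with adjusted p between 5.9e-06 and 0.029 from edgeR. CHM in the KMS11 solvent controls (63.4 and 60.4 CPM) thus stood above its fluvastatin-treated level in H929 (42.4 and 49.5), while RABGGTB (98.3 and 96.4 CPM) stood below its treated level there (128 and 129). FNTA was lower in KMS11 by CPM but higher by 0.27 on the log2(TPM + 1) scale (adjusted p = 0.13, limma), a scale that moved the median of all tested genes by 0.48 towards KMS11 here, and by -0.14 in the response of KMS11 and in the difference between the lines. The FNTA call was also lost without H929 ethanol replicate 2 (adjusted p = 0.18), KMS11 ethanol replicate 1 (0.2) or KMS11 ethanol replicate 2 (0.088). RCE1 had -0.47 (adjusted p = 0.057, edgeR). It was called lower in KMS11 with no filter (0.044), with the replicate block (0.042) and without KMS11 fluvastatin replicate 1 (0.018) or 2 (0.019), but higher, at 0.62 (adjusted p = 0.0011), once trends in GC content and length were removed. That step also took RABGGTA to -0.34.

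The mean transcript length of a gene, weighted by the abundance of its transcripts as the authors' software estimated it, was read as a measure of isoform use that the choice of genes had not involved. All 4 KMS11 libraries lay above all 4 H929 libraries for RABGGTA (1782 to 1830 against 1603 to 1697 bases), RABGGTB (1534 to 1681 against 1327 to 1438), CHML (7422 to 7486 against 7257 to 7408) and ICMT (3818 to 3917 against 3586 to 3804). For the other 6 genes the lines overlapped. Among 12269 tested genes with at least 2 transcripts, 11.2% had such longer means in KMS11 and 8.57% shorter ones. Both subunits of Rab GGTase were thus among the genes with longer mean transcripts in KMS11.

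Other genes of the pathway were read from lists of donors, helpers and substrates, by counts and medians. Of 9 isoprenoid donor genes, which lead from acetyl-CoA to FPP and GGPP, 7 rose in KMS11 and none fell (median log2 fold change 1.34), while in H929 1 rose and 3 fell (median -0.43), beside 2.58% of all tested genes higher in KMS11 and 22.7% higher and 19.3% lower in H929. FDPS, which makes FPP, fell by 0.51 on the log2 scale in H929 and rose by 0.77 in KMS11. GGPS1, which makes GGPP, rose by 0.67 in H929 and had 0.06 in KMS11 (adjusted p = 0.82, edgeR). Of 14 tested genes of the other prenylation machinery, 4 rose in H929 and none in KMS11, near the 22.7% and 2.58% of all tested genes that rose. Among the 4 were PTAR1 (0.43), a protein with prenyltransferase alpha repeats, RAP1GDS1 (0.56), which binds prenylated small GTPases, and ARHGDIB (1.82), which holds prenylated GTPases in the cytosol.

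Of 17 genes listed as farnesylated substrates, SPRY2 among them, 3 rose and 4 fell in H929, and 1 rose in KMS11. The shares were near those of all tested genes in H929 (22.7% higher and 19.3% lower). Whether the product of each listed gene is farnesylated was not tested. LMNA, whose product prelamin A is farnesylated and is the substrate of ZMPSTE24, rose in both lines. Its log2 fold change was 1.39 in H929 (adjusted p = 0.00034) and 1.31 in KMS11 (adjusted p = 0.0075, edgeR). With trends in GC content and length removed, the LMNA difference (KMS11 minus H929) was -0.71 (adjusted p = 0.00017, edgeR). LMNB2 (-1.29) and LMNB1 (-0.74) fell in H929. The LMNA call in KMS11 was lost without ethanol replicate 1 (adjusted p = 0.097) or ethanol replicate 2 (0.089). Of 5 tested G protein gamma subunits 1 rose in H929 and none in KMS11. Medians of all tested genes were 0.02 in H929 and 0.00 in KMS11.

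Across both lines 1 of 9 donor genes and 1 of 14 tested genes of the other machinery rose and none fell. Over all tested genes 6.50% rose and 3.93% fell in this comparison. Of the 17 genes listed as farnesylated substrates LMNA (1.35) and INPP5A (0.57) rose and DNAJA1 (-0.64) fell. Of the 5 tested gamma subunits GNG7 (0.59) rose. Its mean TPM was 9.87 in ethanol and 14.6 in fluvastatin in H929, but only 0.235 and 0.355 in KMS11. The calls of INPP5A, DNAJA1 and GNG7 were lost with the replicate block (adjusted p = 0.093, 0.064 and 0.075) and without any single H929 library, and INPP5A had 0.32 (adjusted p = 0.17) with limma on log2(TPM + 1). INPP5A was also lost without either KMS11 ethanol library, and GNG7 without either of these or KMS11 fluvastatin replicate 2. RABGGTB was the single gene among the 10 to pass in this comparison, as given above.

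**Figure D5:**
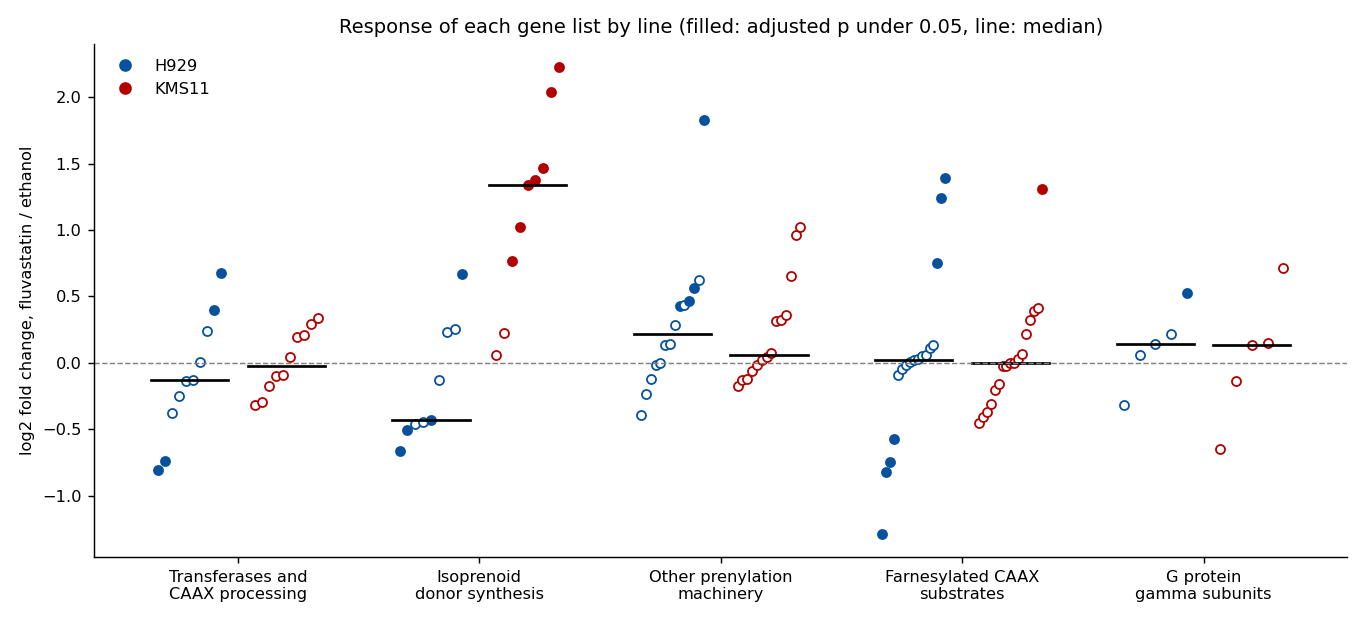
Log2 fold change of every tested gene of each list in H929 and KMS11, with filled points past the adjusted p threshold and a line at the median. The 10 transferase and processing genes lie between -0.81 and 0.68, with medians of -0.13 in H929 and -0.02 in KMS11, while the isoprenoid donor genes have medians of -0.43 and 1.34.

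Genes most like RABGGTB, which had the smallest p across both lines, and most like ICMT, which had the smallest p for the difference, were ranked by Pearson's r of log2 CPM centred within each line over the 8 libraries. They were IDH3A (r = 0.998), TRA2B (0.997) and SRSF1 (0.996) for RABGGTB and SAE1 (0.992), CARS2 (0.991) and TRAIP (0.991) for ICMT. These describe the best of all tested genes over few libraries, whose points share depth and treatment.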

How the data were processed

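The authors removed ribosomal RNA, made stranded libraries, aligned the paired reads to hg38 with STAR 2.5.2b and estimated abundances with RSEM 1.3.0. For each of the 8 libraries they deposited expected counts, TPM and FPKM, together with transcript lengths. Expected counts are not normalized, TPM is scaled by effective length within a library, and FPKM, which the authors also deposited, was not used. The study's methods point to GENCODE release 26, while symbols, positions and biotypes here are those of GENCODE release 44, where 57392 of the 58219 identifiers were found.

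Groups were taken from the sample labels. Expected counts were rounded and tested in R 4.3.3 with edgeR 4.0.16 (filterByExpr at its minimum count 10 and minimum total 15, TMM, quasi-likelihood F test, Benjamini-Hochberg adjustment over 13129 protein-coding genes, threshold 0.05). The response across lines had terms for line and treatment. The other comparisons were contrasts of the 4 group means, which share 1 estimate of the spread. Standard errors were taken as the absolute log2 fold change over the root of F. The scripts were tested on simulated data. Depth ranged from 26702515 to 41910446 counts, and intervals for 2 replicates rest on the shared spread.

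The genes and lists were chosen with earlier results of these data known. All 10 genes are named. From each other list up to 4 genes past the threshold across lines and up to 4 for the difference were named, those of the largest change with mean log2 CPM not below 1, and cell markers and genes overlapping the 10 are given as levels only. Some genes and 1 list under this rule are not reported here. FDPS, GGPS1 and PTAR1 were added for their role after their values were seen. Replicate numbers were not taken as pairs, since the labels do not say what they mark. Alternatives were DESeq2 1.42.0, other scalings and filters, limma 3.58.1 on log2(TPM + 1) and log2(TPM + 0.1), all annotated genes, removal of GC content and length trends, a replicate block, no cell line term, a threshold of 0.01 and leaving out each library.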

Additional observations from a re-analysis of the deposited data

Results flagged for a closer look

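The lines responded differently, by edgeR's test of the difference itself (KMS11 minus H929, adjusted p under 0.05), for ICMT (0.93), RABGGTB (0.49) and CHM (-0.63) among the 10 genes. Genes of the other lists with such a difference, named by the rule given with the processing, were MVD (2.67), ACAT2 (2.00), MVK (1.93) and HMGCS1 (1.80) of isoprenoid donor synthesis, and ARHGDIB (-1.95), ARHGDIA (1.20) and RAP1GDS1 (-0.52) of the prenylation machinery. LMNB2 (1.70), PTP4A3 (-1.24), STK11 (0.90) and LMNB1 (0.72) stood among the farnesylated substrates. Among the 10 genes, the ICMT difference passed under all 20 alternatives, that of RABGGTB under 9 and that of CHM under 11. With DESeq2, and in edgeR with median-of-ratios scaling, RABGGTB did not pass (adjusted p = 0.056 and 0.08), while FNTA did (0.026 and 0.047). The STK11 difference was 0.05 (adjusted p = 0.87) with trends in GC content and length removed, and 0.34 and 0.38 (adjusted p = 0.22) with limma on log2(TPM + 1) and log2(TPM + 0.1). The ARHGDIA difference was 0.57 (adjusted p = 0.11) with limma on either scale. Both were also lost without H929 ethanol replicate 1, H929 fluvastatin replicate 2 or either KMS11 ethanol library, and RAP1GDS1 without any of these or KMS11 fluvastatin replicate 1 (adjusted p from 0.082 to 0.14). With 2 libraries per group, no group was large enough for a test of single outlying libraries.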

How the results depend on the processing

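The number of the 10 genes called across both lines was 1, and it was 0 with the replicate block, at an adjusted p under 0.01 and with no cell line term, 3 with GC content and length trends removed, and 0 to 2 with a library left out. In KMS11 it was 0, and 1 with the replicate block and with the GC content and length trends removed (ZMPSTE24 in both), and 0 to 3 with a library left out, the 3 without fluvastatin replicate 2. For the difference it was 3, and 5, with FNTA and FNTB added, with library size scaling, with the stricter filter and with the replicate block, 1 with limma on log2(TPM + 1) and on log2(TPM + 0.1) and at an adjusted p under 0.01, and 1 to 4 with a library left out. In H929 it was 4, with 3 to 6 under the alternatives, and in ethanol 7 differed, with 6 to 9. The replicate block assumes that equal numbers pair libraries, which the labels do not say (deviations of same-numbered libraries correlated at 0.702 in H929 and -0.02 in KMS11 over 5870 genes), and it also gave RABGGTB across lines an adjusted p of 0.09. ICMT, RABGGTB and CHM in H929 passed under all 20 alternatives. Of these, the added CHURC1-FNTB counts and the fits without a KMS11 library leave the H929 counts of these genes as they are. Of the 50 values of the 10 genes, 21 took the opposite sign under at least 1 alternative, 1 of them a called value (FNTA in ethanol), and CHML in H929 did so under 9 of 20. Those of opposite sign where either value passed the threshold were CHML in H929 (-0.29 without the GC content and length trends), FNTA in ethanol (0.27 and 0.28 with limma on log2(TPM + 1) and log2(TPM + 0.1)) and RCE1 in ethanol (0.62 without the trends). The causes were not tested. Of all tested genes 1370 were called across lines, and 2543 with DESeq2, 158 with the block, 3021 without the trends, 161 at 0.01, 4 with no line term and 298, 191, 216, 369 and 702 without H929 ethanol 1 and 2, H929 fluvastatin 1 and 2 and KMS11 ethanol 2. In KMS11 409 were called, and 889 with DESeq2, 1098 with no filter, 1637 with the block, 249 and 189 with limma, 1596 without the trends, 129 at 0.01 and 63, 72 and 2148 without ethanol 1, ethanol 2 and fluvastatin 2. For the difference 3048 were called, and 1984 and 1934 with limma, 1258 at 0.01 and 1906, 1758, 1309 and 1634 without H929 ethanol 1, H929 fluvastatin 2 and KMS11 ethanol 1 and 2. In H929 5511 were called, and 3538 at 0.01, 3864 and 3899 with limma and 7118 without the trends, where 6 of the 10 were. Library size scaling called 3042 for the difference, the stricter filter 2922 and the block 4227, with 5 of the 10 in each. In ethanol 9454 were called, and 9942 with the block (9 of the 10) and 7938 at 0.01 (6 of the 10). These calls rest on 2 replicates per group and 2 lines, and RABGGTA and RCE1 have the widest intervals in each line. The parts of replicate variation and depth in them were not tested.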
